A study of Mus musculus with 2 samples.

Results

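The cells described here are 69 cell barcodes of a library of control brain microglia that carried the most immediate early RNA. They were chosen by measured values. Barcodes of the control library with at least 500 detected genes and under 10% of UMIs from mitochondrially encoded genes entered, which kept 609 of 609. Barcodes with 1% or more of UMIs from S100a8 and S100a9, 2 neutrophil genes, or 0.05% or more from 6 border macrophage genes (Mrc1, Cd163, Lyve1, Cd209f, Clec10a, F13a1) were dropped, which removed 146 and left 463. The 15% of these with the highest summed share of UMIs from Fos, Jun, Junb, Egr1, Gem, Socs3, Gadd45g and Ppp1r15a are the high barcodes, 69 of the 1194 barcodes in the series. They were compared with the low set, the 231 barcodes at the bottom of the same ranking (50% of those kept), and the 163 between are called the middle. A UMI is a tag that marks one captured RNA molecule.

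The study sequenced CD11b+/CD45+ cells sorted from the brains of adult C57BL/6J mice in 2 libraries. The library named CD came from 4 pooled mice that received control diet over 19 days, and all 69 high barcodes come from it. The library named Repop D5 came from 6 pooled mice given PLX5622, an inhibitor of the microglial survival receptor CSF1R, for 14 days and control diet for 5 days after that. All mice of both libraries share the strain, and both preparations used papain for 20 min at 37 °C and a dye against dead cells. Since each group is 1 library, no difference here has a replicate, no p-value is given, and intervals cover counting error only.

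Immediate early genes are transcribed within minutes of a stimulus without the need for new protein. Fos, Jun and Junb encode subunits of the AP-1 transcription factor, and Egr1 encodes a zinc finger factor of the same rapid class. Their messengers decay fast, and the response also induces its own brakes, among them Socs3, a brake on cytokine receptors, Gem, a small GTPase, Gadd45g, a stress sensor, and Ppp1r15a, which directs removal of the phosphate from eIF2 alpha. In microglia these genes are known to respond to injury, to inflammatory ligands and to isolation of the cells.

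The 69 high barcodes held 450045 UMIs in all, with 3079 to 38219 UMIs per barcode and a median of 5204. The median was 4737 UMIs in the low set and 6420 in the middle. Mitochondrially encoded genes took a median of 2.00% of UMIs in the high barcodes and 1.90% in the low set. Scrublet, a doublet caller, marked 5 of the 609 CD barcodes and 0 of the 69. The libraries shared 1 barcode sequence, which was none of the 69.

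The name microglia held for most of the high barcodes, not for all. The 10 microglia markers (among them P2ry12, Tmem119, Cx3cr1, Csf1r, Siglech, Gpr34, Fcrls, Sall1, Olfml3) took 2.61% of the pooled UMIs of the high barcodes and 2.88% of those of the low set, and none of the 10 was at 0. MHC class II genes, which present antigen and mark dendritic cells and some macrophages, stood apart. In 8 of the 69 high barcodes Cd74, H2-Aa, H2-Ab1 and H2-Eb1 took 1% or more of UMIs, which is 11.6% (95% exact Clopper-Pearson interval 5.14 to 21.6). The same was true of 7 of 163 middle barcodes, 4.29% (1.74 to 8.65), and of 5 of 231 in the low set, 2.16% (0.706 to 4.98). Those 8 high barcodes gave 86.3% of the class II UMIs and 28 of the 32 Ccr2 UMIs of the high set, Ccr2 being a monocyte receptor, and 4 of them had under 1% of UMIs from the microglia markers.

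**Figure D1:**
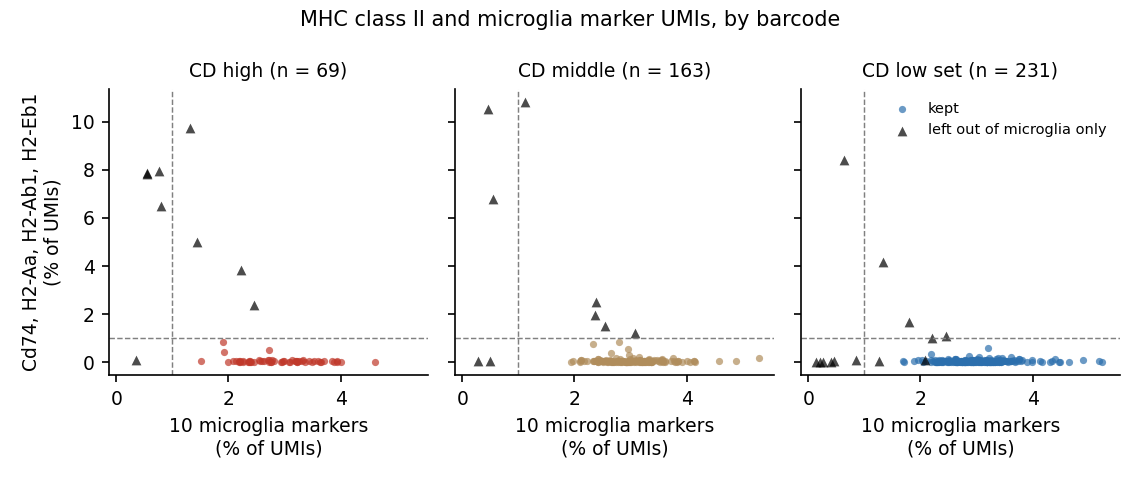
Each point is 1 CD barcode, with the share of its UMIs from the 10 microglia markers on the horizontal axis and from Cd74, H2-Aa, H2-Ab1 and H2-Eb1 on the vertical axis (%), for the high set, the middle and the low set. Dashed lines mark 1%, and triangles are barcodes left out of the microglia only comparison: 9 of 69, 9 of 163 and 13 of 231.

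A single further high barcode had 0.359% of UMIs from microglia markers and held all 45 Mgp UMIs of the set, Mgp encoding a matrix protein of vessel wall and connective tissue cells. In the low set 1 barcode held 900563 CPM of erythroid genes. In the high barcodes the defining genes Lyve1 (border macrophage), Cxcr2 (neutrophil), Cd3e, Cd3d and Cd3g (T cell), Ms4a1 (B cell), Gfap and Aqp4 (astrocyte), Mobp (oligodendrocyte), Snap25 (neuron) and Cldn5 (endothelial) were at 0 UMIs, while other markers of these types were found. The 7 astrocyte markers, of which 5 were found, summed to 62.2 CPM against 27.5 CPM in the low set, the 7 oligodendrocyte markers (5 found) to 102 against 107 CPM, the 8 neuron markers (6 found) to 26.7 against 58.5 CPM and the 7 endothelial markers (2 found) to 31.1 against 158 CPM. The richest low set barcode held 26450 CPM of the endothelial markers, and the richest in neuron markers held 7000 CPM of those. The part of these markers in the results was not tested. Of the 10 border macrophage markers 9 were found in the high barcodes, summing to 360 CPM against 269 CPM in the low set, and 6 of the 8 monocyte markers, summing to 136 against 92.5 CPM, with Vcan and Fn1 at 0. The summed neutrophil markers stood at 2378 CPM (UMIs scaled to a common total) in the high barcodes and 2313 CPM in the low set. The comparison of the high barcodes with the low set was therefore also made on microglia only, a selection made after these values were seen: barcodes with 1% or more class II or erythroid UMIs, 0.1% or more from monocyte markers or under 1% from microglia markers were left out, which keeps 60 high barcodes and 218 of the low set. In this selection the neuron markers summed to 23.3 against 20.5 CPM and the endothelial markers to 28.5 against 31.3 CPM. The astrocyte markers summed to 54.4 against 27.5 CPM and the oligodendrocyte markers to 109 against 104 CPM. For Repop D5 the selection of the same name was made without the limit on microglia markers.

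The 8 genes that chose the barcodes are given as a description. They took between 0.828% and 3.144% of UMIs in the high barcodes (median 1.07%), 0.304% to 0.820% in the middle (median 0.446%) and 0 to 0.304% in the low set (median 0.160%). The shares have no gap at the edge: the last 3 barcodes inside had 0.835%, 0.835% and 0.828%, and the first 3 outside 0.820%, 0.792% and 0.790%. The number of UMIs behind a share was 32 to 319 per high barcode, with a median of 69.

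**Figure D2:**
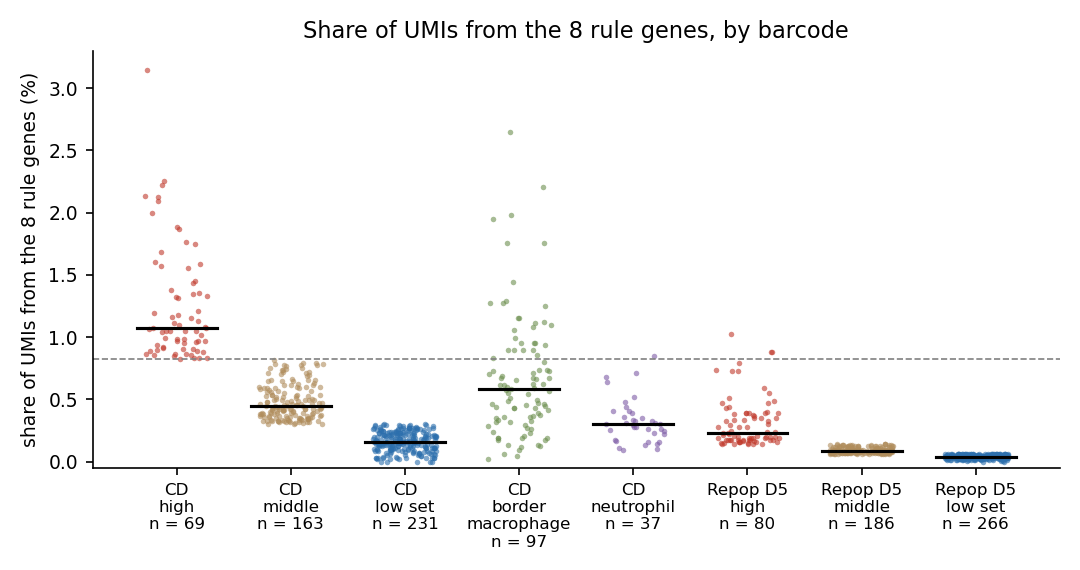
The vertical axis is the share of a barcode's UMIs from the 8 rule genes (%), each point 1 barcode and each bar a median, for the CD and Repop D5 sets and for the CD barcodes dropped by the border macrophage and neutrophil rules. CD high, middle and low set are cut from 1 continuous range. The dashed line (0.828%) parts high from middle, while middle and low set part at 0.304%, where no line is drawn. The Repop D5 sets, cut by the same rule in their own library, lie almost wholly under the dashed line.

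The AP-1 subunits made up most of this RNA. Fos stood at 2766 CPM in the high barcodes and 205 CPM in the low set. Per barcode Fos ran from 0 through a median of 2336 to 11672 CPM in the high set and from 0 through 138 to 1114 CPM in the low set, so the ranges overlap while the high median lies above every low set barcode. Jun stood at 4084 against 883 CPM, with 288, 4102 and 12778 CPM as the lowest, median and highest high barcode and 0, 738 and 2493 CPM in the low set. Junb stood at 3217 against 552 CPM, with 461, 3417 and 10547 CPM per high barcode and 0, 406 and 1797 CPM in the low set. All 3 genes had medians in the high barcodes above the highest low set barcode. This follows largely from the choice, since low set barcodes hold at most 0.304% of UMIs from the 8 genes together.

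The smaller rule genes were patchier. Egr1 stood at 709 against 74.6 CPM and was found in 64 of 69 high barcodes and 74 of 231 in the low set. Socs3 (256 against 39.4 CPM), Ppp1r15a (216 against 34.6 CPM) and Gadd45g (191 against 45.4 CPM) were found in 42, 42 and 31 high barcodes. Gem, at 66.7 against 13.1 CPM, was found in 19. The choice therefore rests mostly on Jun, Junb and Fos: Jun gave the most UMIs of the 8 genes in 42 high barcodes, Junb in 15 and Fos in 12, counted as UMIs and not per length.

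The mix differed as well as the amount. Fos made up 24.0% of the rule UMIs in the high barcodes and 11.1% in the low set, while Jun made up 35.5% and 47.8%. The same UMIs ranked the barcodes, so this shift describes the choice and is no separate result. High barcodes carried several of the genes at once: at least 4 of the 8 were found in every one. The median was 6, against 5 in the middle and 3 in the low set. All 8 were found in 4 of the 69 high barcodes and 13 of the 163 middle ones. These numbers follow from the choice, since the median of rule UMIs was 69 in the high barcodes and 8 in the low set. When each gene was read in sets chosen by the other 7, its ratio of high to low set was 8.29 for Fos, 7.89 for Egr1, 5.86 for Socs3, 5.67 for Ppp1r15a, 4.81 for Gem, 4.58 for Junb, 3.67 for Jun and 3.59 for Gadd45g. Those sets shared 60 to 69 barcodes with the 69, and for Socs3 and Ppp1r15a all 69. These ratios therefore describe nearly the same choice and are no separate result.

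Genome positions are from GENCODE M21 on mm10: Fos is at chr12:85473890-85477273 (plus strand), Jun at chr4:95049034-95052222 (minus), Junb at chr8:84974484-84978718 (minus) and Ppp1r15a at chr7:45522916-45526268 (minus), all protein coding. The 150 bases before the RefSeq start (GRCm38.p6) are shown for 3 rule genes and for Dusp1, a gene outside the rule described next, because these promoters hold TGACG, the core of the cyclic AMP response element that CREB and ATF factors bind. Capitals mark TGACG, or TGACGTCA where the full palindrome is present. The windows are chr12:85473740-85473889 (Fos, plus strand), chr8:84978749-84978898 (Junb, minus), chr7:45526269-45526418 (Ppp1r15a, minus) and chr17:26508473-26508622 (Dusp1, minus).

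Fos: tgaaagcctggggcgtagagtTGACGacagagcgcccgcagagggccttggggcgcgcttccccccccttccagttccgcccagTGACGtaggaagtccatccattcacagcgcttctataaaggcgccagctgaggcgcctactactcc
Junb: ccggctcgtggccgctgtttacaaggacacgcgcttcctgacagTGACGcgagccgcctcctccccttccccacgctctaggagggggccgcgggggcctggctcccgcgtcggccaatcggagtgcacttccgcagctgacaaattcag
Ppp1r15a: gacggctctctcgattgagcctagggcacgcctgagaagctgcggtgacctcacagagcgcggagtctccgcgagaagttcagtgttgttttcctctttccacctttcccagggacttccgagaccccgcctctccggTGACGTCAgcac
Dusp1: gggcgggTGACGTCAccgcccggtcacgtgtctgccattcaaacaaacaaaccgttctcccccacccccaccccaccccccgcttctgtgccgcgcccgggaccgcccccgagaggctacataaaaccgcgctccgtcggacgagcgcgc

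The letters were counted on both strands in windows from 250 bases before to 50 after the start. TGACG was in 20.8% of all 32851 RefSeq promoter entries. Of the 8 rule genes 6 had an entry, and 3 of those held it (Fos, Junb, Ppp1r15a). Among 26 immediate early and feedback genes outside the rule that were higher in the high barcodes, microglia only, 22 had an entry and 13 held TGACG, in 18 of 33 entries (54.5%). Among the 25 homeostatic microglia genes 19 had an entry and 3 held it, in 3 of 25 entries (12%). TGANTCA, the AP-1 site, was in 7.81% of all entries, in 0 of the 6 rule genes and in 2 of the 22. By entries it was in 2 of the 33 (6.06%), and in 3 of the 25 homeostatic entries (12%). The CArG box, bound by serum response factor, was in 1.63% of all entries, in 0 of the 6 rule genes and in 3 of the 22 (Egr2, Srf and Zfp36), whose matches are 6 of the 33 entries (18.2%). The rule genes Egr1 and Gem had no entry, and letters outside the windows were not counted, so a 0 holds only for the windows read. These matches describe letters and not bound sites.

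Outside the rule, 9 of the 15 genes with the highest ratios were further immediate early and feedback genes, led by Dusp2 and Fosb, and the other 6 were Cxcl2, Gadd45b, Mgp, Cd74, H2-Aa and H2-Eb1. A gene is called higher or lower here when it reached 50 CPM in 1 of the sets, its ratio of high to low set was at least 1.5 or at most 0.667, and its exact 95% interval for 2 Poisson counts lay clear of 1, per gene and not adjusted over genes. Of 3223 genes 93 were higher (2.89%) and 235 lower (7.29%). With microglia only 85 of 3245 were higher (2.62%) and 189 lower (5.82%), and 66 genes were higher in both. Of the 93, 22 were on the 3 lists of immediate early factors, other response genes and feedback inhibitors, which held 44 of the 3223 genes.

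The split of higher against lower calls depends on the scaling. The median log2 ratio over the genes tested was −0.13, and after scaling by a trimmed mean of ratios it was −0.00, with 185 higher and 122 lower genes (60.3% of the calls higher, against 28.4% with plain totals). Totals without mitochondrial and ribosomal protein genes gave 138 higher and 176 lower. Directions near a ratio of 1 are therefore not read below.

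Gene lists were read at 10 CPM, where 2.30% of all 8320 genes were higher and 5.19% lower with all barcodes, and 1.89% and 3.99% of 8374 with microglia only. The median log2 ratio over all genes at 10 CPM was −0.16 and, with microglia only, −0.11. Of the 63 measured genes on the 3 response lists 27 were higher, none was lower, and the median log2 ratio was 0.59. With microglia only, 26 of 61 were higher and 1 lower (median 0.43). The lists were drawn up with earlier results of these data known, so the counts describe them and do not test them.

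Among AP-1 and partner bZIP factors, 3 of 12 measured genes were higher. Fosb, a Fos relative that pairs with Jun proteins, stood at 369 CPM in the high barcodes and 38.8 CPM in the low set, a ratio of 9.51 (95% interval 7.10 to 12.9). It was found in 53 of the 69, with a lowest, median and highest value of 0, 289 and 2045 CPM per barcode against 0, 0 and 393 CPM in the low set. Atf3, a stress-induced repressor, had a ratio of 6.31 (4.65 to 8.63) and Jund, the steadily expressed Jun relative, 2.53 (2.30 to 2.79). Maf, a bZIP factor of macrophages, had a ratio of 0.68 (0.58 to 0.79) and passed neither limit. It was 1 of the 9 measured members of the list that were not called.

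Of 31 other immediate early factors and response genes 14 were higher and 0 lower. Ier2, a nuclear protein of the rapid class, stood at 622 against 70.4 CPM, a ratio of 8.84 (7.10 to 11.1). Per barcode it ran through 0, 410 and 4660 CPM in the high set and 0, 0 and 1071 CPM in the low set. Nr4a1, an orphan nuclear receptor, had a ratio of 5.08 (2.83 to 9.24) on 30 UMIs in 12 high barcodes, and Egr2, a relative of Egr1, 11.2 (3.39 to 47.5) on 12 UMIs in 10. The Krueppel-like factors Klf2 and Klf4 had ratios of 3.91 (3.23 to 4.74) and 3.6 (2.46 to 5.27), while Klf6 had 1.22 (0.94 to 1.56). Btg2, an antiproliferative gene, had 2.59 (2.27 to 2.95), Ier5 2.71 (2.43 to 3.02) and Ier3 4.78 (3.29 to 6.98). Rhob, a small GTPase (1.14, 1.03 to 1.26), and Btg1, a Btg2 relative (0.96, 0.84 to 1.10), passed neither limit.

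**Figure D3:**
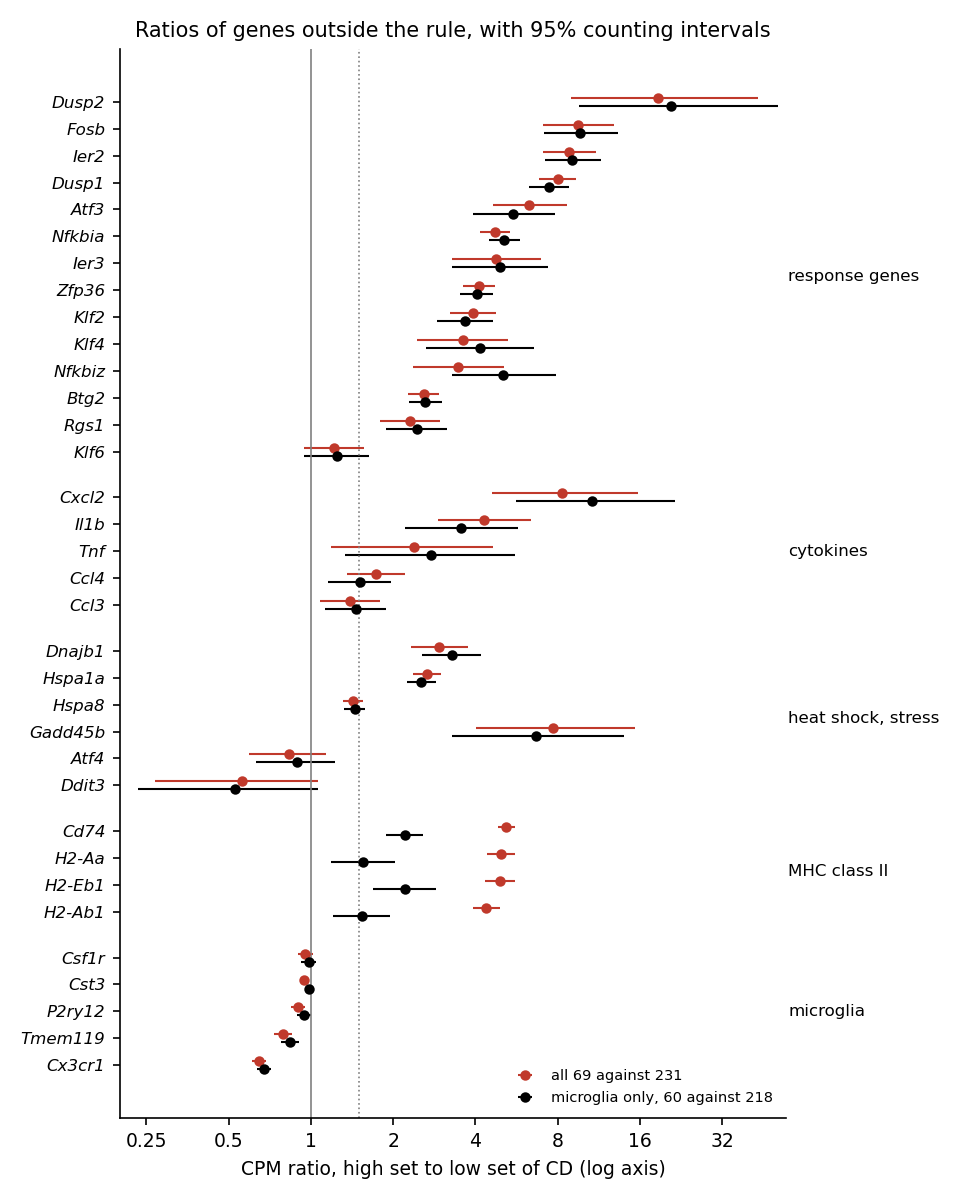
Ratio of CPM in the high barcodes to CPM in the low set of CD on a log axis, with 95% counting intervals, for all barcodes (red) and microglia only (black). The solid line is a ratio of 1 and the dotted line the limit of 1.5. With all barcodes, response genes lie between 1.22 and 18.6 and the microglia genes shown between 0.65 and 0.96. The 4 class II genes are the group that shifts most between the selections. This shift follows from the microglia only selection, which leaves out barcodes with 1% or more of UMIs from those 4 genes.

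Of 20 measured feedback inhibitors 10 were higher in each selection and none lower. Their median log2 ratio was 1.11. Dusp1, a phosphatase that switches off MAP kinases, stood at 1122 CPM against 140 CPM, a ratio of 8.0 (6.84 to 9.38), and was found in 65 of 69 high barcodes with 0, 816 and 6377 CPM as lowest, median and highest value against 0, 0 and 1216 CPM in the low set. Dusp2, a related phosphatase, had the highest ratio of all genes outside the rule, 18.6 (8.99 to 43.3), but on 45 UMIs in 14 barcodes, of which 28.9% came from 1. Without the richest barcode of each set its ratio was 19.9 (8.21 to 58.3), and over 18 alternatives it ranged from 6.23 under a stricter exclusion of other myeloid barcodes to 39.7 with split UMIs.

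The brakes on NF-kB were higher as well. Nfkbia, the inhibitor that holds NF-kB in the cytoplasm, stood at 1280 against 272 CPM, a ratio of 4.71 (4.16 to 5.34), and was found in 67 of 69 high barcodes. Nfkbiz, a nuclear regulator of NF-kB, had 3.47 (2.36 to 5.10) and, with microglia only, 5.07 (3.28 to 7.88). Tnfaip3, an enzyme that dampens NF-kB signalling, had 2.86 (1.72 to 4.73) and Zfp36, which directs decay of cytokine messengers, 4.12 (3.61 to 4.72). Rgs1, a brake on G protein signals, had 2.31 (1.79 to 2.96), whereas its relative Rgs2 had 0.97 (0.86 to 1.10) and the Zfp36 relative Zfp36l2 1.14 (0.98 to 1.33).

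At an equal depth of 3000 UMIs per barcode the same genes still parted the sets. Dusp1 was found in 89.9% of high barcodes (94.2% before thinning) and 30.8% of 224 low set barcodes (47.6% before), Fosb in 52.2% (76.8%) and 7.14% (17.3%), and Ier2 in 73.9% (84.1%) and 15.6% (33.3%). The 36 barcodes that were dropped by the neutrophil rule and reached this depth, with a median of 5561 UMIs before thinning, gave 63.9% for Dusp1, 33.3% for Fosb and 75.0% for Ier2 (86.5%, 45.9% and 89.2% before). Neutrophils express these genes too, so that set is no measure of free RNA. P2ry12, a receptor of resting microglia that neutrophils lack, was found in 77.8% of it, at a median of 2.5 UMIs against 8 in the high barcodes and 10 in the low set. That set is mixed: of its 37 barcodes before thinning, 22 had under 1% of UMIs from microglia markers and 12 met the microglia only limits. Its P2ry12 share is therefore no measure of free RNA either.

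Summed over the 79 genes of the 3 lists in the files, the response RNA took a median of 17022 CPM per high barcode, from 7846 to 36546 CPM. The middle had a median of 11816 CPM and the low set 9334 CPM, from 939 to 16473 CPM. Of the 69 high barcodes 67 lay above the low set's median and 38 above its highest barcode. The sets therefore form a slope with overlap and not 2 separate groups.

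**Figure D4:**
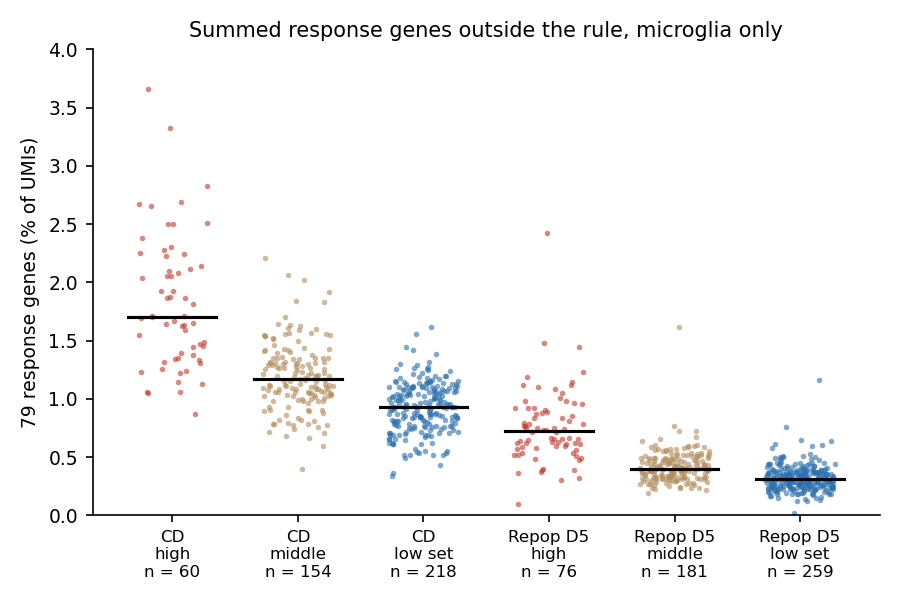
Share of UMIs (%) from the 79 response genes outside the rule, per barcode, microglia only, with bars at the medians. For Repop D5 this selection had no limit on microglia markers. In CD the points shift upward from the low set through the middle to the high set with broad overlap, and in Repop D5 the same order appears at a lower level.

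Among cytokines, chemokines and their surface partners 8 of 19 measured genes were higher and 2 lower. Il1b, Cxcl2, Tnf and Ccl4, 4 of the 8, were found in 8 to 20 of the 69 high barcodes, and Cd14 in 60. Il1b, the inflammatory cytokine, stood at 131 against 30.4 CPM, a ratio of 4.31 (2.91 to 6.39), on 59 UMIs in 20 high barcodes, and at 3.56 (2.21 to 5.71) with microglia only. Cxcl2, a neutrophil attractant, had 8.32 (4.59 to 15.7), with 65.8% of its 38 UMIs from 1 of 8 barcodes. Without the richest barcode of each set its ratio was 3.6 (1.56 to 8.26). Tnf had 2.38 (1.19 to 4.64) on 16 UMIs, which is higher at the list minimum of 10 CPM.

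The size of the ratios of Ccl3 and Ccl4, chemokines that microglia make readily, depended on single barcodes. Ccl4 stood at 227 against 131 CPM, a ratio of 1.73 (1.36 to 2.20), and Ccl3 at 198 against 142 CPM, a ratio of 1.39 (1.08 to 1.78). The richest low set barcode held 53.0% of that set's Ccl4 UMIs and 38.2% of its Ccl3 UMIs. In the high set the richest barcode held 21.6% of the Ccl4 and 24.7% of the Ccl3 UMIs. The list as a whole reached 80463 CPM in the low set barcode richest in it. Without the richest barcode of each set Ccl4 had 2.97 (2.19 to 4.02) and Ccl3 1.78 (1.31 to 2.39). With a stricter exclusion of other myeloid barcodes, which left 33 high and 110 low set barcodes, Ccl4 turned to 0.537. The direction of Ccl4 thus depended on which barcodes were kept.

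Cd14, the lipopolysaccharide co-receptor, had 1.58 (1.36 to 1.84), and 1.38 (1.16 to 1.62) with microglia only. Ccl9 was lower, with 0.63 (0.49 to 0.81). Il10 had 0 UMIs in the high barcodes, which allows at most 3 of 450045, and its 18 UMIs in the low set came from 1 barcode.

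A few chaperone genes were higher. On the heat shock list 3 of 21 passed, 4 with microglia only, none passed downward, and the median log2 ratio was 0.13. Hspa1a, the inducible Hsp70, stood at 1122 against 421 CPM, a ratio of 2.66 (2.37 to 2.99), with 0, 455 and 7859 CPM per high barcode and 0, 253 and 3868 CPM in the low set, so the ranges overlap widely. Dnajb1, its co-chaperone, had 2.95 (2.32 to 3.75), and Hspa8, the constitutive Hsp70, 1.43 (1.31 to 1.56). Hsp90ab1 had 1.18 (1.07 to 1.31) and Hsf1, the transcription factor of the response, 0.84 (0.39 to 1.63).

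Of 17 measured genes of stress, growth arrest and the eIF2 alpha branch, a list without the rule gene Ppp1r15a and without Atf3, 1 was higher, Gadd45b, a relative of the rule gene Gadd45g, with 7.70 (4.03 to 15.3) on 31 UMIs. Atf4, the factor translated when eIF2 alpha is phosphorylated, had 0.83 (0.60 to 1.13), and Ddit3, its proapoptotic target, 0.56 (0.27 to 1.06) on 11 UMIs. Cdkn1a, the p53 target, had 1.53 (0.88 to 2.59).

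MHC class II genes had high ratios that came mostly from the 8 barcodes described above. Of 7 measured members 4 were higher, with Cd74, the invariant chain, at 5.19 (4.84 to 5.57), H2-Aa at 4.96 (4.40 to 5.59), H2-Eb1 at 4.93 (4.34 to 5.60) and H2-Ab1 at 4.38 (3.92 to 4.90). With microglia only the same 4 had 2.21 (1.88 to 2.58), 1.56 (1.18 to 2.03), 2.21 (1.69 to 2.86) and 1.54 (1.20 to 1.95). That selection leaves out barcodes with 1% or more of UMIs from these 4 genes, so a fall in their ratios follows from it. Under the stricter exclusion 0 members were higher, with Cd74 at 1.04 and H2-Aa at 0.763. At equal depth Cd74 was found in 46.4% of high barcodes (63.8% before thinning), in 45.1% of the low set (64.1%) and in 47.2% of the neutrophil-rule barcodes (64.9%), so the share of barcodes did not part the sets. H2-DMa, which loads peptides, had 1.00 (0.83 to 1.19).

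Of 18 measured genes of disease-associated microglia 3 were higher, Apoe, a lipid carrier, with 2.05 (1.96 to 2.15), Lyz2, the lysozyme of macrophages, with 1.98 (1.83 to 2.14), and Axl, a receptor for dying cells, with 4.51 (2.35 to 8.75). With microglia only 0 of 18 were higher, Apoe having 1.29 (1.21 to 1.36), Lyz2 1.15 (1.01 to 1.29) and Axl 2.03 (0.69 to 5.37). Of 14 interferon response genes 1 was higher, Ifi27l2a, with 2.81 (2.08 to 3.79) and, with microglia only, 1.87 (1.23 to 2.80). Ifit3 had 0 UMIs in the high barcodes against 18.5 CPM in the low set.

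Microglia identity genes were close to even. The 25 homeostatic genes counted none higher and 1 lower, and their median log2 ratio of −0.15 stood beside −0.16 for all genes. P2ry12 stood at 2993 against 3330 CPM, a ratio of 0.90 (0.85 to 0.95), with 171, 2875 and 7879 CPM per high barcode and 0, 3350 and 10248 CPM in the low set. Csf1r had 0.96 (0.90 to 1.01). Tmem119 had 0.79 (0.73 to 0.85). Cx3cr1, the fractalkine receptor, was the 1 called lower, with 0.65 (0.61 to 0.69), and with microglia only its 0.68 (0.64 to 0.72) just missed the limit. Under the trimmed scaling Cx3cr1 stood at 0.70 and P2ry12 at 0.98, and Csf1r and Cst3 passed from under to over 1 at 1.04 and 1.03. The 21 lysosomal genes held 0 higher and 0 lower.

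Ribosomal protein messengers and Malat1 moved with the choice in CD. Ribosomal protein genes took a median of 14.2% of UMIs per high barcode and 10.8% in the low set, and 14.1% and 10.6% with microglia only. Of 103 measured 5 were higher, and the median log2 ratio was 0.41 beside −0.16 for all genes. Malat1, a nuclear noncoding RNA, took a median of 2.90% and 4.01% of UMIs, a pooled ratio of 0.75 (0.74 to 0.77). By the same rule in Repop D5, 1 of 103 ribosomal protein genes was higher, with a median log2 ratio of 0.01, and Malat1 had a ratio of 1.19. The part of ribosomal protein genes and Malat1 in the other ratios was not tested beyond the scalings above.

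The lower genes were many and thinly measured. The median count of the 235 in the high barcodes was 23 UMIs, and 57% of them stayed under 100 CPM in both sets, against 50.5% of all genes tested. Among the 10 lowest by the naming rule were Ly6a, Ptgds, Arid3a, Cds2, Cbfa2t3, Gon4l, Tbc1d16, Emsy and Hist1h1c, with 4 to 11 UMIs each in the high barcodes. Ptgds, a prostaglandin synthase of glia and meninges, had 0.17 (0.06 to 0.38), but 86.9% of its low set UMIs came from 1 barcode, and without the richest barcodes its ratio was 1.12 (0.32 to 3.16). None of the 235 was on a response list, and with microglia only 1 of the 189 was, Klf3, with 0.66 (0.47 to 0.89).

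Some of the highest ratios also came from single barcodes. Id3, an inhibitor of bHLH factors, had 82.1% of its 28 UMIs from 1 high barcode and a ratio of 1.88 (0.50 to 6.04) without the richest barcodes. Mgp had all of its UMIs from 1. Vps8, an endosomal tethering protein, ranks among the 15 highest with microglia only. Over all high barcodes, 37.7% of its UMIs came from 1. Without the richest barcode of each set its ratio was 2.18 (1.5 to 3.15). With microglia only 11 of the 15 highest genes were on a response list.

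Across barcodes the AP-1 genes were linked with each other and with Dusp1 and Ier2. Over 423 CD microglia thinned to 3000 UMIs, Pearson's r was 0.60 between Fos and Junb, 0.60 between Jun and Junb and 0.55 between Fos and Jun (Spearman's rho 0.52, 0.57 and 0.47). Junb had r of 0.60 with Dusp1 and 0.60 with Ier2 (rho 0.42 and 0.42). Ccl3 and Ccl4 had the highest r of the pairs computed, 0.95, but a rho of 0.21. Gadd45g had 0.04 with Fos, and Fos had 0.14 with Hspa1a, 0.02 with Ccl3 and −0.02 with P2ry12. These are descriptions across barcodes of 1 library, which share its mice and preparation. Links at the low counts of the rarer genes are not read.

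Repop D5 offered cells that the choice in CD did not use. The same rule applied there kept 532 barcodes and gave 80 high and 266 low set barcodes, at a much lower level: the 8 genes summed to 2971 CPM in its high set and 420 CPM in its low set, against 11505 and 1848 CPM in CD. Only 3 of the 532 reached the CD limit of 0.828%, which is 0.564% (0.116 to 1.64). Repop D5 barcodes were deeper, with a median of 15772 UMIs over all barcodes against 5982 in CD. Treatment, mice and library cannot be told apart in this difference.

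Within Repop D5, 74 of 2682 genes were higher (2.76%) and 28 lower (1.04%). Of the 93 genes higher in CD, 73 reached 50 CPM there and 34 of those were higher (46.6%) with 0 lower, beside 62 of 2288 genes (2.71%) measured in both libraries. The 34 are 36.6% of the CD genes and 45.9% of the 74. With microglia only, where 2.65% of 2679 genes were higher in Repop D5, 35 of 65 genes higher in CD were higher there too (53.8%), beside 2.62% of the genes measured in both. In Repop D5 that selection had no limit on microglia markers and kept 76 high and 259 low set barcodes. The microglia markers took 0.368% of UMIs in the lowest of those 76, with a median of 1.14%. Of the 117 genes lower in CD that were measured in Repop D5, 1 was lower and 0 higher, where 1.04% of all 2682 genes were lower. With so few lower genes there, this count cannot show whether the lower calls recur. By direction, 59 of the 117 had a ratio above 1 in Repop D5 (50.4%), beside 48.9% of the 2288 genes measured in both.

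**Figure D5:**
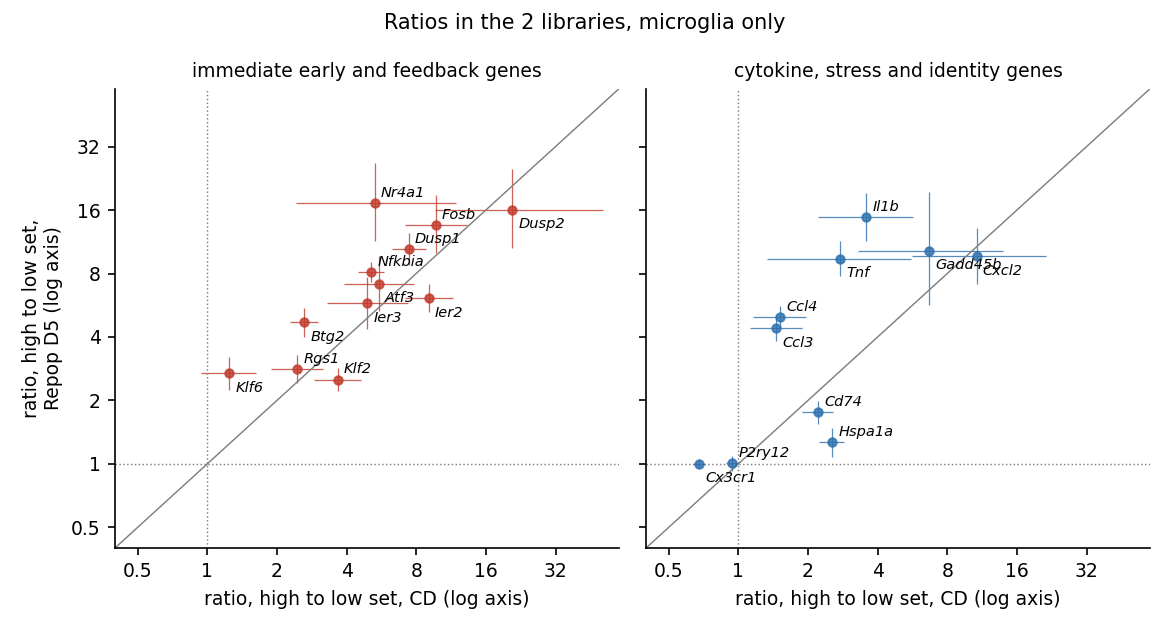
Ratio of the high set to the low set in CD (horizontal) and in Repop D5 (vertical), microglia only, on log axes with 95% counting intervals, for genes outside the rule. For Repop D5 the microglia only selection had no limit on microglia markers. The diagonal marks equal ratios. Immediate early and feedback genes (left) are above 1 in both libraries, and Il1b, Tnf, Ccl3 and Ccl4 (right) lie above the diagonal.

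Response list genes were among those higher in both libraries. Fosb had ratios of 9.51 in CD and 13.1 in Repop D5, Dusp1 8.0 and 10.5, Ier2 8.84 and 5.95, Nfkbia 4.71 and 7.96, and Atf3 6.31 and 6.04. On the 3 lists 34 of 53 measured genes were higher in Repop D5 and 1 lower, where 4.23% of all 7415 genes were higher and 2.68% lower. With microglia only 33 of 54 were higher, where 3.89% of all genes were. Inflammatory genes had larger ratios there: Il1b 15.9 beside 4.31, Tnf 9.18 beside 2.38, Ccl4 5.06 beside 1.73 and Ccl3 4.53 beside 1.39. Cytokines counted 15 of 20 higher in Repop D5 and 8 of 19 in CD. In the other direction Hspa1a had 1.28 in Repop D5 beside 2.66 in CD, and Dnajb1 1.62 beside 2.95. With 1 library each these differences between libraries were not tested.

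Among the CD barcodes that the rule had dropped, 29 of 97 with border macrophage RNA reached the limit of 0.828%, 29.9% (21.0 to 40.0), at a median depth of 13048 UMIs. Of the 37 dropped for neutrophil RNA 1 did, 2.70% (0.0684 to 14.2). The high immediate early level was thus not particular to the 69 within the CD library.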

How the data were processed

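Single-cell RNA was measured with 10x Genomics in 2 pooled libraries, CD and Repop D5, 1 per group. The authors deposited raw UMI counts per gene and barcode over 27998 genes, and per the submitters' processing notes these came from Cell Ranger 2.1.0 on mm10. The annotation and the rule that called cells are not given in the sources used here. Total depth was 6055886 UMIs in CD and 11300334 in Repop D5. UMIs of each set were summed and scaled to CPM. Ratios carry the exact conditional binomial 95% interval, log2 ratios a pseudocount of 1 CPM, shares Clopper-Pearson intervals and zeros a floor of 3 counts, all for counting error only. No doublets were removed in the values reported. Scrublet (scanpy 1.11.5) calls left out served as an alternative. The scripts (Python 3.11.15, numpy 2.4.6, scipy 1.17.1) were tested on simulated data. The members and lists were chosen with earlier results of these data known. Named genes are the 15 highest and 10 lowest called genes (without the rule genes and predicted, ribosomal, mitochondrial, haemoglobin and sex-linked genes), 2 highest, 2 lowest and 2 most abundant per list, and a fixed set of response, stress and microglia genes. The microglia only selection, its highest genes and other list members given with values were chosen after the values were seen. Across settings 20 alternatives were planned and 3 added. Some genes within these rules are not reported here.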

Additional observations from a re-analysis of the deposited data

How the results depend on the processing

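No paired analysis was possible because each group is 1 library. For the same reason no replicate could be left out. The 27 CD response list genes called higher ranged from 22 (list minimum of 50 CPM) to 36 (no exclusion of other myeloid barcodes) over the settings. The 93 higher CD genes became 153 with no exclusion, 185 with trimmed scaling, 191 at a minimum of 10 CPM, 200 with no minimum and 51 at a ratio of 2. The 235 lower CD genes became 122, 432, 400 and 44 under the last 4 of these. The 4 higher class II genes became 0 under the stricter exclusion and 2 when other cells were left out before choosing. In Repop D5 the 74 higher genes became 112 with a stricter cell filter, 114 with totals without mitochondrial and ribosomal protein genes, 118 thinned, 314 at 10 CPM, 416 with no minimum and 45 at a ratio of 2. Its 28 lower genes became 57, 54, 73, 199, 247 and 1 in the same order, 43 with the highest 10%, 16 against all other barcodes, 12 chosen within strata of UMI depth and 61 with UMIs split. Its 0 higher class II genes became 1 (highest 10%), 4 (no exclusion), 1 (thinned) and 3 (microglia only, and the same before choosing). Among called genes 11 ratios reversed. In CD these were H2-Aa (0.763), H2-Eb1 (0.748), H2-Ab1 (0.949), Ccl4 (0.537) and Ptgds (1.38) under the stricter exclusion, Ptgds (1.12) and Mgp (0) without the richest barcode, and Mgp (0 and 0) in both microglia only settings. In Repop D5 they were Ifit3 (0.745, highest 10%) and Zfp260 (0.971, thinned). The cause was not tested, apart from the thresholds, which change the number of genes tested, and the barcodes left out by construction. Dusp1 ranged from 3.82 to 10.0, Fosb from 3.41 to 13.9 and Ier2 from 4.32 to 11.7 over 18 alternatives each. Depth limits Dusp2, Egr2, Cxcl2, Id3, Tnf and the lowest genes, which rest on 4 to 45 UMIs in the high barcodes.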
